A study of Mus musculus with 28 samples.

Results

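The hepatic response to 7 days of dietary phenobarbital (PB) was compared between wild-type CD-1 mice and hCAR/hPXR mice, a mouse line with humanised versions of the receptors CAR and PXR. The measure was a difference of differences, that is the PB effect in hCAR/hPXR mice minus the PB effect in CD-1 mice, taken over every non-control probe of the array. It used 22 of the 28 livers of the series. These were 4 male CD-1 mice on a 0 ppm diet, 4 male CD-1 mice on 1500 ppm PB, 7 male hCAR/hPXR mice on 0 ppm and 7 male hCAR/hPXR mice on 1000 ppm PB. The other 6 livers came from C3H mice fed for 27 weeks after diethylnitrosamine and entered no comparison here. All animals ate powdered diet freely, and each array carried the Cy3-labelled total RNA of 1 liver. Age, the genetic background of the hCAR/hPXR line and how it was built are not given in the sources used here.

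Strain and dose changed together, since no group of 1 strain received the dose of the other. The slides were also split by strain. The CD-1 controls lay on 1 slide and the CD-1 PB animals on another, so in CD-1 mice diet and slide cannot be told apart. The 7 hCAR/hPXR controls shared a slide with PB animal 1, and PB animals 2 to 7 lay on a further slide. The strains were scanned in different sessions. A difference between the responses therefore cannot be told apart from the dose, the slide or the scan session.

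CAR (encoded by Nr1i3) and PXR (Nr1i2) are nuclear receptors of the hepatocyte that pair with RXR and turn on genes for drug oxidation, conjugation and export. PB frees CAR from retention in the cytoplasm without needing to bind it, and rodent liver responds with strong induction of Cyp2b genes, enlargement of hepatocytes and a transient wave of cell division. The human receptors differ from the mouse ones in which ligands they bind, and mice that carry them are used to ask which of these responses the human receptor supports.

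Levels are given as log2 processed signal minus the 75th percentile of the same array, and effects as differences of such levels. Of 36999 tested probes, 6175 (16.7%) had a called difference between the responses, meaning an adjusted p under 0.05 in the limma fit across all probes. Of the same probes, 14046 (38%) passed for the hCAR/hPXR effect, with 7480 up (20.2%) and 6566 down (17.7%), and 3552 (9.6%) for the CD-1 effect, with 613 up (1.66%) and 2939 down (7.94%). Effects below are fitted estimates ± SE from all 22 arrays, with 4 animals against 4 in CD-1 and 7 against 7 in hCAR/hPXR. The variance of a probe was pooled over both strains, so the SE of a strain's effect is not that strain's spread alone. The arrays of the strains differed in spread: the distance from the 25th to the 75th percentile was 2.75 to 3.49 log2 units on CD-1 arrays and 4.72 to 5.32 on hCAR/hPXR arrays. Between 46.4% and 70.6% of probes were well above background per array. The CD-1 PB slide was noisier than the others. The median coefficient of variation of non-control signal was 21.1% to 25.3% on CD-1 PB arrays and 13.2% to 14.3% on CD-1 control arrays. On hCAR/hPXR arrays it was 10.5% to 16.0% in controls and 9.3% to 12.4% on PB. In CD-1 mice this noise went with diet, and its part in the CD-1 effects was not tested. The number of arrays limits the precision, and the SE of a CD-1 effect was larger than that of an hCAR/hPXR effect, since CD-1 had 4 animals a group against 7 and its arrays a weight of 0.526 against 1.44. The probe for mouse Pxr, Nr1i2, was well above background on 8 of 8 CD-1 arrays and on 1 of 14 hCAR/hPXR arrays. The 12 hepatocyte markers tested were detected on all 22 arrays.

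Among 16737 genes and transcripts detected in both strains, the responses often differed in direction. The same sign was seen in 47.9%, and the effects correlated with Pearson r = 0.22 and Spearman rho = 0.13, a description across genes that carries no test. In hCAR/hPXR mice 59.4% of these genes had an effect above 0, against 34.5% in CD-1 mice. The median effect was 0.12 in hCAR/hPXR and -0.21 in CD-1, which put the median difference at 0.33. Other scalings placed that median between 0.16, after normexp background correction with quantile scaling, and 0.62, after equalising the spread of the arrays, so a single gene's difference is best read against this shift.

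Of the 16737 genes, 3866 (23.1%) had a called difference. It was higher in hCAR/hPXR mice for 3008 genes (18%) and lower for 858 (5.13%). Over all tested probes the split was 4638 higher and 1537 lower, and with normexp and quantile scaling it was 3597 higher and 3259 lower. Both strains passed the test in the same direction for 648 genes (3.87%), of which 124 rose in both (0.741%) and 524 fell in both (3.13%). They passed it in opposite directions for 345 genes (2.06%). Of those, 314 rose in hCAR/hPXR mice and fell in CD-1 mice, and 31 did the reverse. Nothing was called for 6361 genes (38%). A further 5822 genes (34.8%) were called in hCAR/hPXR mice alone with no called difference, for which the data show neither agreement nor disagreement, and 173 (1.03%) were called in CD-1 mice alone in the same way. Another 398 genes (2.38%) had a called difference with neither strain called. The 515 genes (3.08%) called alike without a called difference include the shared responses described below. A slide term within hCAR/hPXR, under which that strain's effect rests on PB animal 1 alone, left 886 called probes, 54 same-direction genes and 3 opposite genes.

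Agreement ran further in 1 direction of reading than in the other. Of 264 genes (1.58%) that rose in CD-1 mice, 202 (76.5%) had an effect above 0 in hCAR/hPXR mice and 124 (47.0%) passed the test there. Of 4961 genes (29.6%) that rose in hCAR/hPXR mice, 1832 (36.9%) had an effect above 0 in CD-1 mice and 124 (2.50%) passed. Of 1792 genes that fell in CD-1 mice, 911 (50.8%) were below 0 in hCAR/hPXR mice and 524 (29.2%) passed. Of 3954 genes (23.6%) that fell in hCAR/hPXR mice, 2639 (66.7%) were below 0 in CD-1 mice and 524 (13.3%) passed. The number of genes that pass depends on the SE, which differs by strain, so these shares do not compare the size of the responses.

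Where both strains passed in the same direction, the CD-1 effect was usually the larger. Among the 124 genes up in both, the median effect was 0.77 in hCAR/hPXR and 1.26 in CD-1, and 25 were larger in hCAR/hPXR. The test of the difference called 5 of them larger in hCAR/hPXR and 14 larger in CD-1. Among the 524 genes down in both, the medians were -0.77 and -1.53, and 13 were larger in hCAR/hPXR. The test called 114 larger in CD-1 and 0 larger in hCAR/hPXR. A CD-1 effect had to be larger to pass the test, so these medians are in part set by the selection.

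**Figure D1:**
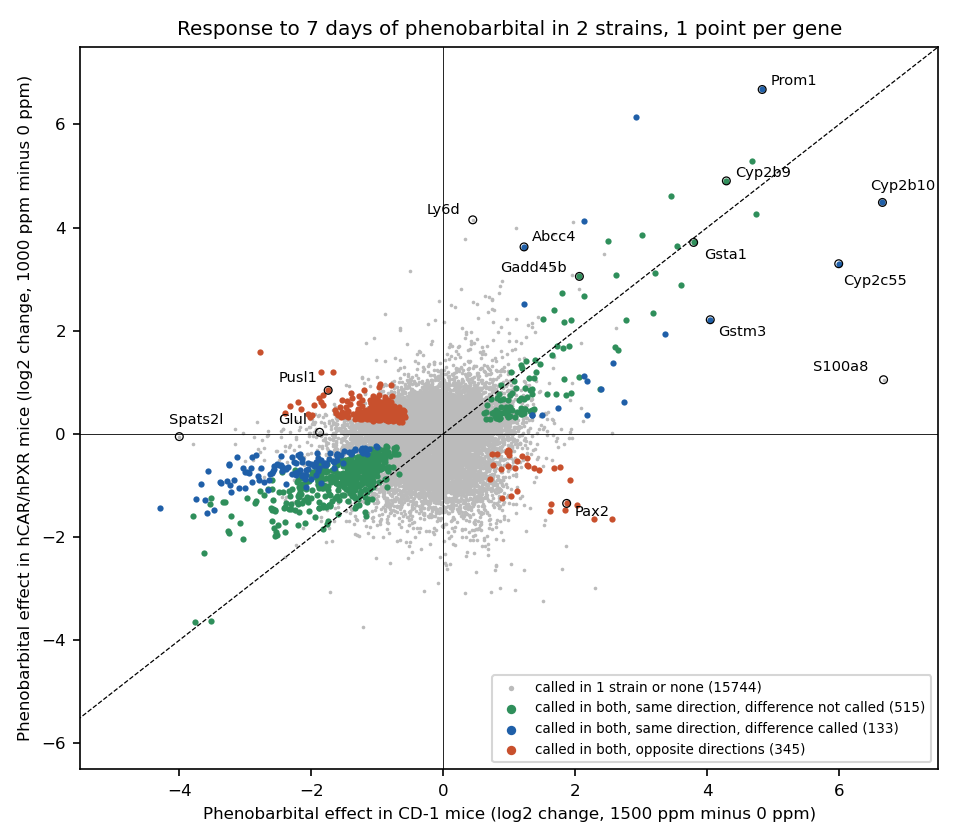
Fitted PB effect in CD-1 mice (x axis, log2 change) against that in hCAR/hPXR mice (y axis, log2 change), with 1 point per gene detected in both strains and 1 further gene outside the axes; colours give the calls, and the dashed line marks equal effects. Gsta1 lies near that line, Cyp2b10, Cyp2c55 and Gstm3 lie on the CD-1 side of it, Pusl1 and Pax2 lie in the quadrants of opposite sign, and Spats2l lies near 0 in hCAR/hPXR mice at -4.0 in CD-1 mice.

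The difference depended on how strongly a gene was expressed. In 5 equal groups of the detected genes, ordered by mean level over the 22 arrays, the median difference was -0.10 in the dimmest group and 0.11, 0.38, 0.54 and 0.51 in the following ones. The share of genes with a called difference was 14% in the dimmest group and 31.1% in the fourth. The CD-1 median fell from -0.07 to -0.28 between those groups while the hCAR/hPXR median rose from -0.26 to 0.24. The part of the unequal spread of the arrays in this pattern was not tested.

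**Figure D2:**
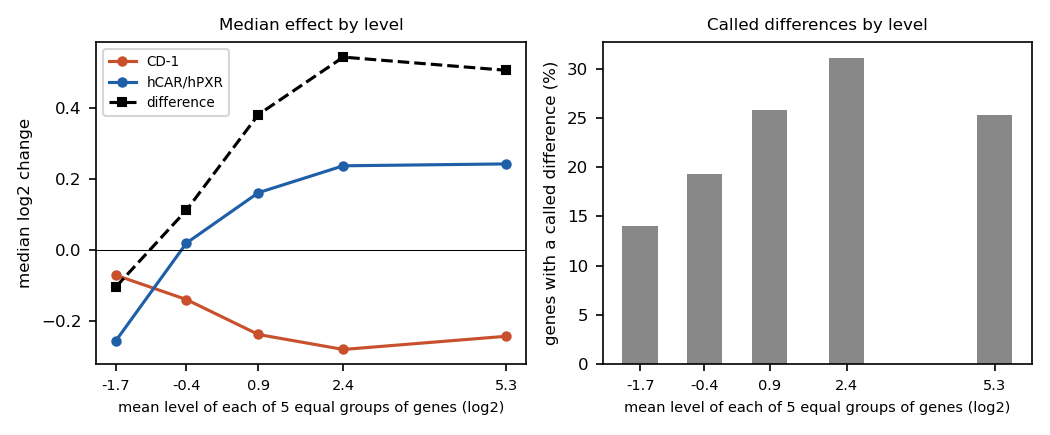
Left, median PB effect in each strain and median difference (log2, y axis) for 5 equal groups of 16737 genes by mean level (x axis, log2); right, percent of genes with a called difference in each group. The median difference runs from -0.10 in the dimmest group to 0.54 in the fourth group.

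The gene lists below hold genes with a symbol that were detected in both strains. Over all 10435 such genes, 22.8% had a called difference that was higher in hCAR/hPXR mice and 3.03% one that was lower, 25.8% in all, and the median difference was 0.46. Of these genes 51.7% passed the test in hCAR/hPXR mice, 38% up and 13.7% down, and in CD-1 mice 12.8% did, 1.75% up and 11.1% down. Those are the shares against which each list is read. Among the named genes, 122 had a called difference. Of these, 34 kept it in each of 14 other settings in which they were tested and with any 1 of the 22 animals left out, 30 higher and 4 lower; the 30 include genes detected in 1 strain only. The slide term within hCAR/hPXR ended 80 of the 122 calls and is not repeated gene by gene.

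The CAR- and PXR-responsive P450 genes mostly had the same sign in both strains, with the higher median effect in CD-1 mice. Of 20 members, 11 rose in both strains (0.968% of all genes with a symbol did so) and 18 had the same sign. The median effect was 1.20 in hCAR/hPXR mice and 2.13 in CD-1 mice. A difference was called for 9 members (45%), with 6 lower and 3 higher in hCAR/hPXR mice. The median difference was -0.27 and stayed below 0 in each of the 14 other settings. Members of the Cyp2b, Cyp2c and Cyp3a families are close in sequence, so cross-hybridisation between them leaves single members uncertain.

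Cyp2b10, the classical CAR target of rodent liver, was the most induced fixed gene in both strains. In CD-1 controls its levels were 1.91, -0.21, 1.59 and 2.39, and on PB they were 7.57, 8.20, 8.43 and 8.11. In hCAR/hPXR controls the lowest, median and highest levels were 4.79, 5.25 and 6.38, and on PB 9.63, 9.94 and 10.08. No PB animal overlapped the controls of its strain, and hCAR/hPXR mice stood higher than CD-1 mice on either diet. The effect was 4.49 ± 0.23 (22.4-fold) in hCAR/hPXR mice and 6.66 ± 0.50 (101-fold) in CD-1 mice, with a difference of -2.17 ± 0.55 (adjusted p = 0.0118). The smaller change in hCAR/hPXR mice went with a higher control level, whose part in it was not tested. Levels of the strains come from different slides and scan sessions with unequal spread, so they are not directly comparable. The call was lost with quantile scaling (-1.62) and with normexp and quantile scaling (-0.91).

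Cyp2c55, a CAR and PXR target found in liver and gut, followed the same order. It was not well above background on any of the 4 CD-1 control arrays and was so on all 4 CD-1 PB arrays, a rise of at least 21.0-fold. The rise in hCAR/hPXR mice was 9.84-fold, from a median level of 2.62 to 5.74. The fitted difference was -2.70 ± 0.50 (adjusted p = 0.00204), and it was lost with normexp and quantile scaling (-1.06).

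Cyp2c54, a further CAR-responsive P450 of the liver, kept its call in every setting tried. Its levels were 5.80, 4.42, 5.03 and 5.08 in CD-1 controls and 7.59, 7.82, 8.03 and 7.83 on PB. In hCAR/hPXR mice they ran from 7.61 to 8.11 with a median of 7.84 in controls and from 7.59 to 8.76 with a median of 8.53 on PB. The CD-1 groups were apart and the hCAR/hPXR groups overlapped. The effects were 0.62 ± 0.16 in hCAR/hPXR and 2.73 ± 0.34 in CD-1, with a difference of -2.11 ± 0.37 (adjusted p = 0.00149). Of its other probes, 1 gave a called difference of -1.32 and 1 gave -0.78, which was not called.

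Cyp2c39 rose by 2.56 ± 0.42 in CD-1 mice and measured 0.02 ± 0.19 in hCAR/hPXR mice, a difference of -2.54 ± 0.46 (adjusted p = 0.0018). Cyp2c37 (-1.01) and Cyp2c50 (-1.19), picked here after their values were seen, completed the 6 lower members. The 3 higher ones were Cyp3a25, at 0.78 in hCAR/hPXR and -0.67 in CD-1 mice, and, picked after their values were seen, Cyp2c65 (4.13 and 2.13) and Cyp2c66 (2.72 and 0.84). The Cyp3a25 call was lost when the arrays were given equal spread (1.91). Cyp3a11, the main PXR-induced P450 of mouse liver, measured 0.18 ± 0.14 in hCAR/hPXR and 0.34 ± 0.32 in CD-1 mice on its brightest probe. A second Cyp3a11 probe gave 1.23 in hCAR/hPXR and 0.31 in CD-1 mice, so its probes disagree for the humanised line. Cyp1a2, the arylamine-oxidising P450, rose by 1.04 ± 0.19 in hCAR/hPXR mice and measured -0.12 ± 0.41 in CD-1 mice, with a difference of 1.16 ± 0.45 that was not called (adjusted p = 0.0773) but passed without CD-1 PB 3. Leaving out 1 animal ended no called difference among the P450 genes named by rule, which are Cyp2b10, Cyp2c55, Cyp2c54, Cyp2c39 and Cyp3a25.

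**Figure D3:**
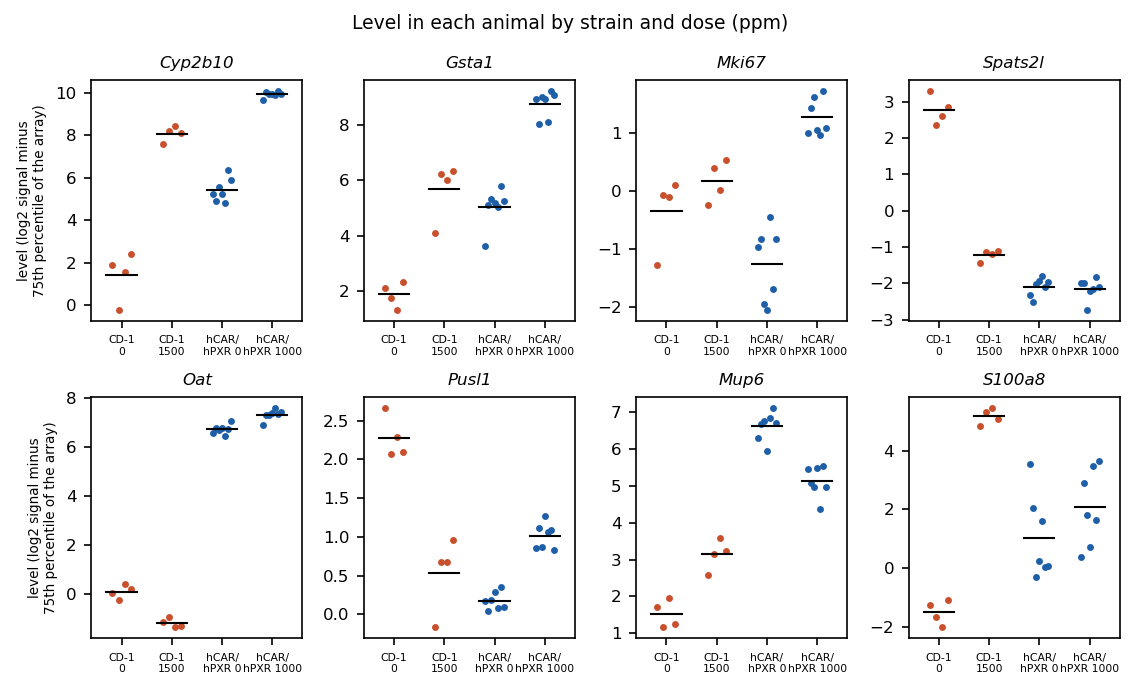
Level of 8 genes in each animal (y axis, log2 signal minus the 75th percentile of the array) by strain and diet in ppm (x axis); points are animals, lines are group means, red is CD-1 and blue is hCAR/hPXR. Cyp2b10 and Gsta1 rise in both strains, Pusl1 and Mup6 move in opposite directions, and Spats2l and S100a8 separate the diets in CD-1 mice while the hCAR/hPXR groups overlap.

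Several conjugating and ester-cleaving enzymes rose in both strains without a called difference. Among genes detected on all 22 arrays that rose in both strains with no called difference, the 8 with the largest smaller effect were Gsta1, Gstm2, Gsta2, Gadd45b, Ces2c, Cyp2a4, Gstt3 and Ces2a. The choice used both effects, so these values are a description. Gsta1, an alpha-class glutathione transferase, had levels of 2.13, 1.74, 1.33 and 2.33 in CD-1 controls and 4.11, 6.24, 6.02 and 6.34 on PB. In hCAR/hPXR controls they ran from 3.63 to 5.79 with a median of 5.17, and on PB from 8.03 to 9.22 with a median of 8.93. Neither strain's groups overlapped. The effects were 3.71 ± 0.28 (13.1-fold) and 3.80 ± 0.61 (13.9-fold), a difference of -0.08 ± 0.67.

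Ces2a, a carboxylesterase that cleaves drug esters, showed the same pattern at smaller size. Its levels were 6.94, 6.03, 6.57 and 6.63 in CD-1 controls and 7.42, 7.65, 8.67 and 8.01 on PB. Among hCAR/hPXR animals the lowest, median and highest were 8.09, 8.62 and 8.91 in controls and 9.63, 10.08 and 10.19 on PB. Controls and PB animals were apart in both strains, and the effects of 1.44 ± 0.14 and 1.40 ± 0.30 differed by 0.04 ± 0.33. Its relative Ces2c had effects of 1.70 and 1.72, although 2 other Ces2c probes gave differences of -1.29 and -0.98 that were not called. Gsta2 had effects of 2.21 and 2.77, Gstt3 of 1.67 and 1.81 (with a called difference of -0.86 under normexp and quantile scaling), and Cyp2a4, a steroid-hydroxylating P450, of 1.69 and 2.60. A second Cyp2a4 probe gave 2.17 and 2.06, a difference of 0.11 against -0.91 on the brightest probe, neither called. Gstm2 had 2.68 and 2.13, but another of its probes gave a called difference of 1.51.

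Promoter windows of 4 genes are printed because they stand for different patterns: Cyp2b10 rose more in CD-1 mice, Gsta1 and Ces2a rose alike, and Glul fell in CD-1 mice with no call in hCAR/hPXR mice. Each is the 250 bases before the annotated start, 5′ to 3′ on the plus strand, from RefSeq on build GRCm38.p6. Capitals mark the nuclear receptor half-site AGGTCA. The windows lie at chr7:25897408-25897657 for Cyp2b10, chr9:78230419-78230668 for Gsta1, chr8:104733753-104734002 for Ces2a and chr1:153899679-153899928 for Glul.
Cyp2b10: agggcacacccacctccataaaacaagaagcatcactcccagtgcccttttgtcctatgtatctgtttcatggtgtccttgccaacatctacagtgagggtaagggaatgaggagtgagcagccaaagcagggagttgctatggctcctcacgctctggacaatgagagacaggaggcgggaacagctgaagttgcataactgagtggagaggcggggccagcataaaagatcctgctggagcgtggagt
Gsta1: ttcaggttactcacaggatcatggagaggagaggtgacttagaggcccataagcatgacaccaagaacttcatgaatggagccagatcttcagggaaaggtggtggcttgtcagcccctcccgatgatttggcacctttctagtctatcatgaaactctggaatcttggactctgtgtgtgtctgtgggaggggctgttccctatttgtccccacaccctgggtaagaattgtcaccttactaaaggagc
Ces2a: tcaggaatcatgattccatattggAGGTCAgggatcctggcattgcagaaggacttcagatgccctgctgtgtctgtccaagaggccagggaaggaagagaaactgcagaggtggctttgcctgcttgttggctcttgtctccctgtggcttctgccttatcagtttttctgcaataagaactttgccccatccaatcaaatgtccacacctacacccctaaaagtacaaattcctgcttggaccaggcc
Glul: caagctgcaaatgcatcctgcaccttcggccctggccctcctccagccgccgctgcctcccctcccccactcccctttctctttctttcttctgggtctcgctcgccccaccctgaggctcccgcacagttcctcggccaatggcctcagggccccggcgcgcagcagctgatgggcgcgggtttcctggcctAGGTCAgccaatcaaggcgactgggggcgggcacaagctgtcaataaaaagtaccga

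The half-sites AGGTCA and AGTTCA were searched on both strands of these windows. The Ces2a window held AGGTCA starting 226 bases before the start and the Glul window held it 57 bases before, while the Cyp2b10 and Gsta1 windows held neither motif. The known PB-responsive enhancer of Cyp2b10 lies further upstream than this window. Of 27025 promoters in the table, 24.1% held a match. The share was 20.3% of 8358 genes detected in both strains, 29.3% of 82 genes up in both, 23.3% of 150 down in both and 19.7% of 229 with opposite calls. A match is a description of letters and shows no binding.

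The glutathione transferases as a list split between agreement and disagreement. Of 21 members, 8 rose in both strains and 8 (38.1%) had a called difference, 6 higher and 2 lower in hCAR/hPXR mice. The medians were 0.96 in hCAR/hPXR and -0.04 in CD-1 mice, and the median difference of 0.52 was close to that of all genes and shrank to 0.04 with quantile scaling. Mgst3, a membrane-bound transferase and peroxidase, measured 1.25 ± 0.13 in hCAR/hPXR and -0.69 ± 0.29 in CD-1 mice, a difference of 1.94 ± 0.32 (adjusted p = 0.000834) that every setting kept. Gstm7 rose by 0.60 in hCAR/hPXR mice and fell by 0.90 on the log2 scale in CD-1 mice. Its other probe gave a difference of 0.49 that was not called. Gstm3 rose by 2.21 and 4.05 with a difference of -1.83 ± 0.47 (adjusted p = 0.013), but its second probe gave 0.71, not called, and slide as a random block ended the call. The mu-class genes are near-identical in stretches and their probes cannot be assigned to single members with certainty.

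Some sulfotransferases were detected in hCAR/hPXR PB animals alone. Sult2a1, a hydroxysteroid sulfotransferase typical of female mouse liver, was not well above background on any CD-1 array or any hCAR/hPXR control array, and was so on all 7 hCAR/hPXR PB arrays. Its hCAR/hPXR PB levels ran from 1.29 to 4.95 with a median of 3.49, a rise of at least 116-fold. Sult2a2 and Sult2a4 had the same detection pattern, with rises of at least 270-fold and 31.4-fold in hCAR/hPXR mice. Sult2a6 rose by at least 302-fold in hCAR/hPXR mice and measured 1.16 ± 0.76 in CD-1 mice. Another Sult2a6 probe gave a difference of -0.86 that was not called, against 7.17 and 8.45 for the others. Sult2a1, Sult2a2 and Sult2a4 entered the test through the hCAR/hPXR PB group alone, so they had to differ and their calls are no support. These near-identical paralogs may share signal and count as 1 pattern. Sult3a1 rose in both strains, by at least 28.8-fold in hCAR/hPXR and at least 3.24-fold in CD-1 mice. Its difference of 3.22 ± 0.67 (adjusted p = 0.00401) was lost with quantile scaling (1.58) and with normexp and quantile scaling (1.05). Of 11 sulfotransferase genes detected in both strains, Sult2a6 and Sult3a1 were the 2 with a called difference, against 6 higher of 18 when all tested members were counted (of 15541 tested genes with a symbol, 20.6% had a called difference, 17.7% higher and 2.94% lower).

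The reductases, esterases and dehydrogenases rose together more often than they diverged. Of 28 members, 8 rose in both strains and 5 had a called difference, all 5 higher in hCAR/hPXR mice, a share below that of all genes. Those were Cbr1, Aldh1b1 and Adh4 and, picked after their values were seen, Akr1b10 and Ces1c. Cbr1, a carbonyl reductase, measured 1.46 ± 0.15 in hCAR/hPXR and 0.08 ± 0.32 in CD-1 mice. The difference was 1.37 ± 0.35 (adjusted p = 0.0133) and was lost with quantile scaling (0.93), equal spread (1.46), normexp (0.61) and both blocks (1.34 and 1.37). Its paralog Cbr3 rose by 3.94 ± 0.22 in hCAR/hPXR mice, where all 7 PB levels (3.28 to 4.37) lay above all 7 control levels (-0.38 to 0.42). In CD-1 mice Cbr3 was detected on 2 of 4 control and 3 of 4 PB arrays and measured 0.52 ± 0.47. The difference of 3.42 ± 0.52 (adjusted p = 0.000447) was kept in each setting in which it was tested. Cbr3 is outside the 28 and entered the test through hCAR/hPXR mice alone, so its call is no support.

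Of 22 NRF2 targets, genes switched on by oxidative and electrophile stress, 10 (45.5%) had a called difference, 8 higher and 2 lower. Several of them are also CAR targets or sit in the lists above. Abcc4, a basolateral exporter of drug and bile acid conjugates, had levels of -2.36, -2.83, -3.32 and -3.11 in CD-1 controls and -1.59, -1.88, -1.62 and -1.63 on PB. Those of hCAR/hPXR animals ran from -1.25 to -0.27 in controls and from 2.66 to 3.29 on PB, with medians of -0.63 and 2.92. The groups were apart in both strains. The CD-1 controls were not well above background, so the CD-1 rise was at least 1.44-fold, against 12.3-fold in hCAR/hPXR mice. The difference of 2.40 ± 0.35 (adjusted p = 0.000288) was kept in each setting tried. Nqo1, a quinone reductase outside the 22, rose by 2.29 ± 0.23 in hCAR/hPXR mice and was not well above background on any CD-1 array. It entered the test through hCAR/hPXR mice alone, so its called difference (adjusted p = 0.00163) is no support. Txnrd1, thioredoxin reductase, measured 0.73 and -0.48, a difference of 1.20 ± 0.29 (adjusted p = 0.00919) that normexp and quantile scaling (0.68) and the replicate block (1.18) ended, as did keeping flagged spots or using the deposited values (1.52 for both).

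Among 17 hepatobiliary transporters, 7 (41.2%) had a called difference, all 7 higher in hCAR/hPXR mice, and 1, Abcc4, rose in both. The medians were 0.39 in hCAR/hPXR and -0.54 in CD-1 mice. Abcg5, a subunit of the sterol exporter, measured 0.81 and -0.97, a difference of 1.79 ± 0.40 (adjusted p = 0.00651). Slco1a4, a PXR- and CAR-responsive uptake carrier, rose by 1.51 ± 0.14 in hCAR/hPXR mice and measured 0.11 ± 0.30 in CD-1 mice, a difference of 1.40 ± 0.33 (adjusted p = 0.00872). Both calls were lost with normexp and quantile scaling (1.11 and 0.47), and that of Slco1a4 also with quantile scaling (0.91) and equal spread (1.39). Of 15 glucuronosyltransferase and UDP-glucuronate supply genes, Ugt1a10 was the 1 with a called difference, at 1.97 ± 0.39 (adjusted p = 0.00303), and Ugt2b34, picked after its values were seen, was the 1 that rose in both (0.84 and 1.31).

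Haem synthesis supplies the prosthetic group of P450 enzymes. On the brightest probes the difference was called lower for its first enzyme, narrowly, and higher for several later ones. Alas1, the rate-limiting first enzyme, had levels of 5.12, 4.30, 5.36 and 3.52 in CD-1 controls and 5.55, 6.36, 6.58 and 6.43 on PB. Levels in the humanised line ran from 7.34 to 8.17 with a median of 7.55 in controls and from 7.70 to 8.67 with a median of 7.97 on PB. The CD-1 groups did not overlap and the hCAR/hPXR groups did. The effects were 0.28 ± 0.19 in hCAR/hPXR and 1.65 ± 0.42 in CD-1 mice. The difference of -1.37 ± 0.46 passed narrowly (adjusted p = 0.0472) and its other probe gave 0.10, not called. It was lost in 11 of the 14 other settings and held in 7 of 22 fits without 1 animal, with values from -1.63 to -1.02. The animals whose removal ended it were CD-1 controls 2 and 4, CD-1 PB 2 to 4, hCAR/hPXR controls 1, 2, 4 and 7, and hCAR/hPXR PB 1 and 3 to 7.

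Alad, the second enzyme of the pathway, moved in opposite directions. Its levels were 3.39, 2.85, 2.64 and 2.71 in CD-1 controls and 1.17, 2.10, 2.34 and 1.89 on PB. hCAR/hPXR animals ran from 4.08 to 4.54 with a median of 4.22 in controls and from 4.70 to 5.13 with a median of 4.94 on PB. No group overlapped its control, and PB animals were lower in CD-1 and higher in hCAR/hPXR mice. The effects were 0.68 ± 0.11 and -1.02 ± 0.25, a difference of 1.70 ± 0.27 (adjusted p = 0.000681) kept in each setting. Ppox, a later enzyme, did the same at 0.45 and -0.88, a difference of 1.33 ± 0.22 (adjusted p = 0.000818), also kept in each setting. Cpox, another late enzyme, measured -0.03 and -1.13, with a called difference of 1.09 that was lost with quantile scaling (0.73) and with slide as a random block (1.11). In the list of 15, 8 (53.3%) had a called difference, 7 higher and 1 lower. Por, the electron donor of all microsomal P450 enzymes, rose in both strains, by 1.09 ± 0.15 and 2.05 ± 0.33, and its difference of -0.96 ± 0.37 was not called (adjusted p = 0.0778). It passed with quantile scaling (-1.42), with normexp and quantile scaling (-1.24) and without CD-1 PB 1.

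Among growth-linked genes, Gadd45b rose in both strains without a called difference, while several mitotic genes had a called difference. Gadd45b, a stress-induced partner of CAR in the early growth response, had levels of 1.08, 0.37, 0.56 and 0.48 in CD-1 controls and 1.97, 3.28, 2.54 and 2.95 on PB. In hCAR/hPXR mice they ran from -0.47 to 0.29 in controls and from 2.33 to 3.22 on PB, with medians of -0.13 and 2.98. The PB groups of both strains stood above their controls. The effects were 3.05 ± 0.15 (8.30-fold) in hCAR/hPXR and 2.06 ± 0.33 (4.18-fold) in CD-1 mice, and the difference of 0.99 ± 0.37 was not called (adjusted p = 0.0676). It passed without hCAR/hPXR PB 1 or without hCAR/hPXR control 1, and with quantile scaling it was -0.44, so no direction is given for it. Ccnd1, the G1 cyclin, measured 0.56 ± 0.23 and 0.40 ± 0.50, and Myc 0.99 ± 0.17 and 0.53 ± 0.38, with differences of 0.16 ± 0.55 and 0.46 ± 0.42 that were not called. In the list of Gadd45 family and CAR-linked growth genes, limma called 0 of 10 differences, and 2 had an unadjusted p under 0.05.

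Mki67, the antigen of cycling cells, separated the strains. In CD-1 controls its levels were -1.28, -0.07, -0.10 and 0.11, and on PB -0.25, 0.40, 0.01 and 0.54. In hCAR/hPXR controls the lowest, median and highest levels were -2.04, -0.95 and -0.44, and on PB 0.97, 1.09 and 1.72. The CD-1 groups overlapped and the hCAR/hPXR groups were far apart. The effects were 2.51 ± 0.23 in hCAR/hPXR and 0.51 ± 0.50 in CD-1 mice, a difference of 2.0 ± 0.55 (adjusted p = 0.0181). The call was lost without CD-1 control 3 or CD-1 control 4 (1.85 to 2.31 over all 22 animals), with quantile scaling (1.15), with normexp and quantile scaling (0.43) and with both blocks. A second Mki67 probe gave 1.12, not called.

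The 12 genes of G2 and mitosis that were detected in both strains had medians of 2.21 in hCAR/hPXR and 0.38 in CD-1 mice. All 12 rose in hCAR/hPXR mice (38% of all genes with a symbol did so). In CD-1 mice 1 rose (Birc5, picked after its values were seen) and 1 fell (Hmmr). The other Birc5 probes gave 0.78 and -0.01 in CD-1 mice, neither called. Their differences were 1.89, not called, and 2.48, called, so the CD-1 rise of Birc5 is uncertain. A difference was called for 5 (41.7%), all 5 higher in hCAR/hPXR mice. The median difference of 1.82 was 0.79 with normexp and quantile scaling and between 1.45 and 2.02 in the other settings. Ube2c, which drives mitotic exit, measured 2.21 ± 0.17 and -0.13 ± 0.38, a difference of 2.33 ± 0.42 (adjusted p = 0.00154) lost with normexp and quantile scaling (0.77). A second Ube2c probe gave 2.64 in hCAR/hPXR and 0.81 in CD-1 mice, a difference of 1.84 that was not called. Anln, a scaffold of the cleavage furrow, rose by 2.0 ± 0.18 in hCAR/hPXR mice and was not well above background on any CD-1 array, so its CD-1 level has only a bound. Of 21 DNA replication genes, 15 rose in hCAR/hPXR mice and 0 passed in CD-1 mice, but 3 (Uhrf1, Gins2 and Mcm7) had a called difference, a share below that of all genes. Those 3 calls were lost with quantile scaling, normexp and both blocks. They were also lost without CD-1 control 3 or CD-1 control 4. Further single removals that ended them were CD-1 PB 4 for Uhrf1, CD-1 PB 1 and CD-1 control 2 for Gins2, and CD-1 PB 1, 2 and 4, CD-1 control 1 and hCAR/hPXR PB 4 for Mcm7.

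The cell cycle inhibitor and p53 target Cdkn1a measured -0.01 ± 0.20 and 0.05 ± 0.43, with a difference of -0.05 ± 0.47. Among 12 p53 targets, 2 had a called difference, Phlda3 and Bbc3, a share below that of all genes. Phlda3, an inhibitor of AKT signalling, had levels of -0.96, -1.53, -1.28 and -1.02 in CD-1 controls and -1.91, -0.62, -1.09 and -2.13 on PB. Those of hCAR/hPXR animals ran from -1.16 to -0.25 in controls and from 0.94 to 2.04 on PB. The CD-1 groups overlapped and the hCAR/hPXR groups did not, and the difference was 2.36 ± 0.44 (adjusted p = 0.0019). Bbc3, the apoptosis gene also called PUMA, measured 0.83 and -0.63, a difference of 1.47 ± 0.25 (adjusted p = 0.00101). Both were kept in each setting.

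**Figure D4:**
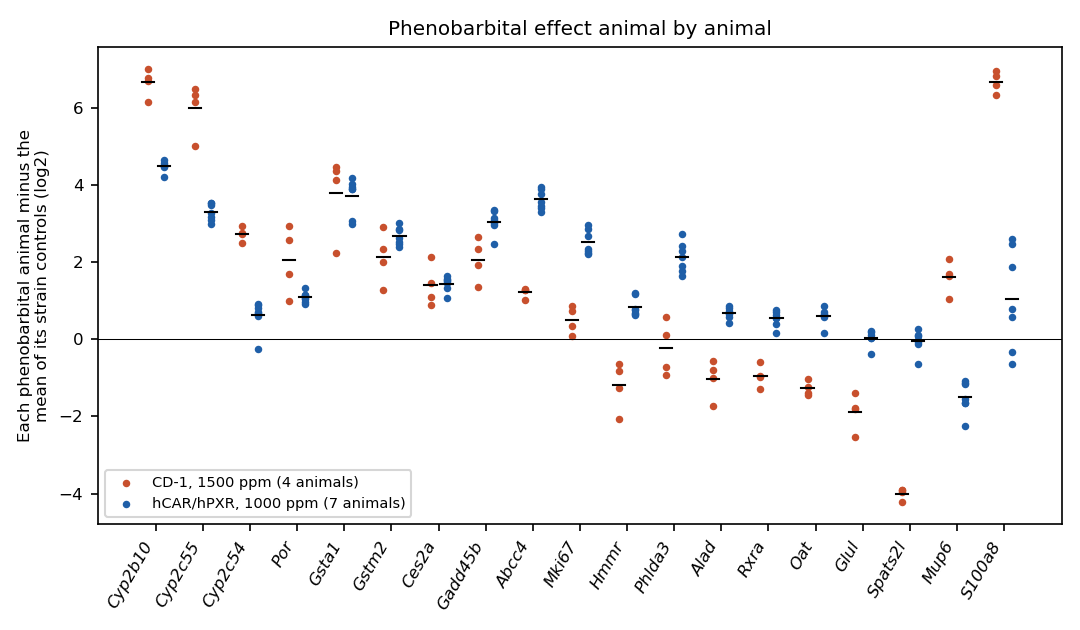
PB effect in each PB animal, taken against the mean of its strain's controls (y axis, log2), for 19 genes (x axis), with 4 CD-1 animals in red and 7 hCAR/hPXR animals in blue; lines are means. The strains overlap for Por, Gsta1, Gstm2, Ces2a and Gadd45b, and are apart for the other genes drawn; over all 16737 genes detected in both strains, 35.2% had no overlap.

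Most cholesterol synthesis genes rose in hCAR/hPXR mice, and few passed the test in CD-1 mice. Of 23 cholesterol genes, 20 rose in hCAR/hPXR mice, against 38% of all genes with a symbol, and 0 rose in CD-1 mice, where 3 fell, a share near the 11.1% of all genes with a symbol. A difference was called for 10 (43.5%), all 10 higher, and the median effects were 0.56 and -0.38. The median difference was 0.91 and lay between 0.65 and 1.32 in the other settings. Srebf2, the transcription factor of this pathway, had effects of 0.52 ± 0.17 and -1.48 ± 0.37, a difference of 1.99 ± 0.41 (adjusted p = 0.00381), and a second probe gave a called 1.73. Sc5d (0.51 and -0.90) and Ebp (0.54 and -1.01), sterol-modifying enzymes, were the other members called in opposite directions. The Ebp call was lost with quantile scaling (1.01) and normexp (0.77), and the Sc5d call with equal spread (1.95). Fdft1, squalene synthase, measured 0.95 and -0.75 with a called difference of 1.70 ± 0.31 on its brightest probe, but another probe gave -0.56, not called.

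Of 17 fatty acid synthesis genes, 9 rose in hCAR/hPXR mice, and in CD-1 mice 1 rose and 3 fell. A difference was called for 10 (58.8%), all 10 higher in hCAR/hPXR mice, with medians of 0.43 and -0.67. The median difference of 1.02 lay between 0.75 and 1.55 in the other settings. Mlxipl, the glucose-sensing transcription factor ChREBP, rose by 0.65 ± 0.15 in hCAR/hPXR mice and fell by 1.23 on the log2 scale in CD-1 mice, a difference of 1.88 ± 0.35 (adjusted p = 0.00206) kept in each setting in which it was tested. Srebf1, the insulin-responsive driver of lipid synthesis, measured 0.15 ± 0.12 and -1.12 ± 0.26, a difference of 1.27 ± 0.29 (adjusted p = 0.00636) that the replicate block ended.

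For fasting-side metabolism the difference came mostly from falls in CD-1 mice, with list medians near 0 in hCAR/hPXR mice. Of 22 fatty acid oxidation genes, 6 fell in CD-1 mice and 1 in hCAR/hPXR mice, the medians were -0.90 and 0.01, and 7 (31.8%) had a called difference. Ppara, the fasting-state nuclear receptor, measured -1.75 ± 0.31 in CD-1 and -0.31 ± 0.14 in hCAR/hPXR mice, a difference of 1.44 ± 0.34 (adjusted p = 0.00801). Its other probes passed the test downward in both strains. One gave -1.40 in CD-1 and -0.67 in hCAR/hPXR mice, a difference of 0.73 that was not called. The other gave -1.52 and -0.49, a called difference of 1.03. Of 18 gluconeogenic and amino acid-degrading genes, 6 fell in CD-1 mice and 7 (38.9%) had a called difference, including Pcx, pyruvate carboxylase, at 1.38 ± 0.28 (adjusted p = 0.00383), lost with normexp (0.59). Of 16 bile acid genes, 7 (43.8%) had a called difference, and 6 fell in CD-1 mice. Klb, the FGF co-receptor that restrains bile acid synthesis, fell by 1.53 on the log2 scale in CD-1 mice and measured 0.17 in hCAR/hPXR mice, a difference of 1.69 ± 0.28 (adjusted p = 0.000879) lost with normexp (0.26). Cyp7a1, which carries out the first step of the classical bile acid route, measured 0.63 ± 0.38 and 0.20 ± 0.84, a difference of 0.43 ± 0.92 that was not called.

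Of 19 secreted hepatocyte protein genes, 3 fell in CD-1 mice, where 11.1% of all genes with a symbol did, and 6 (31.6%) had a called difference. Alb, serum albumin, had levels of 9.27, 8.32, 8.94 and 8.79 in CD-1 controls and 5.93, 6.98, 7.56 and 6.97 on PB. Levels in the humanised line ran from 9.90 to 10.64 with a median of 10.33 in controls and from 10.05 to 10.54 with a median of 10.17 on PB. The CD-1 groups were apart and the hCAR/hPXR groups overlapped. The effects were -0.04 ± 0.14 and -1.97 ± 0.31, a difference of 1.93 ± 0.34 (adjusted p = 0.00149) that was lost with quantile scaling (1.08) and with normexp and quantile scaling (0.88). F9, coagulation factor IX, measured 0.15 and -1.5, and its difference of 1.65 ± 0.25 (adjusted p = 0.000412) was kept in each setting. For the 12 hepatocyte markers summed, log2 levels ran from 12.64 to 13.37 in CD-1 controls and 12.01 to 12.69 on PB, against 12.52 to 12.77 and 12.40 to 12.95 in hCAR/hPXR mice. In bulk liver fewer cells of a type and less RNA per cell cannot be told apart. The part of the array scaling in the CD-1 values was not tested.

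**Figure D5:**
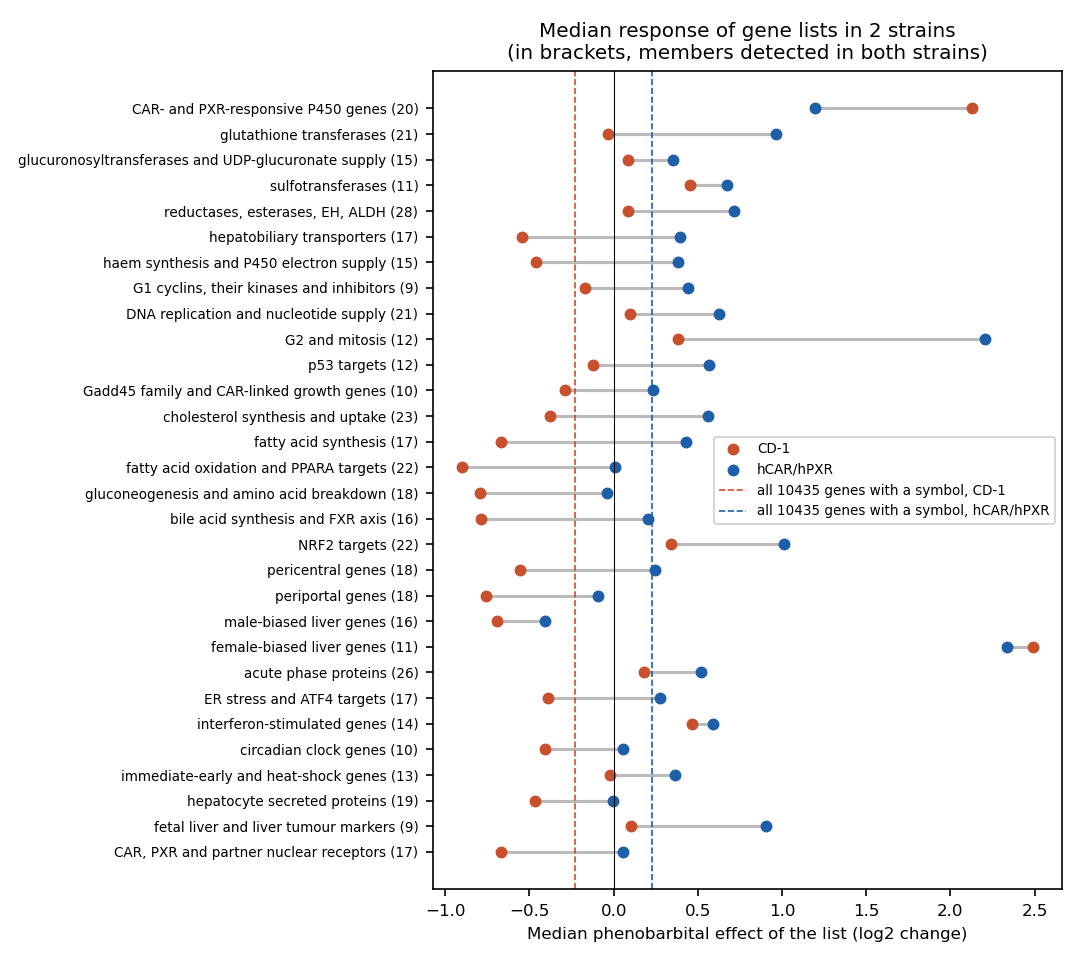
Median PB effect of each of 30 gene lists (x axis, log2) in CD-1 (red) and hCAR/hPXR mice (blue), with the number of members detected in both strains in brackets; dashed lines mark the medians of all 10435 genes with a symbol, -0.23 and 0.23. The CD-1 median lies right of the hCAR/hPXR median for the P450 genes and the female-biased genes and left of it for the other 28 lists.

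Pericentral genes, expressed around the central vein where PB induction is strongest, were among the lists with the highest share of called differences. Of 18 members, 10 (55.6%) had one, 9 higher and 1 lower in hCAR/hPXR mice, with medians of 0.25 and -0.56. The median difference was 1.04 and lay between 0.79 and 1.34 in the other settings. Glul, glutamine synthetase, had levels of 3.68, 2.08, 3.30 and 2.75 in CD-1 controls and 0.42, 1.18, 1.56 and 1.15 on PB. hCAR/hPXR animals ran from 6.36 to 6.96 in controls and, over 6 PB animals, from 6.24 to 6.83, since 1 PB spot was flagged and dropped. The CD-1 groups were apart and the hCAR/hPXR groups overlapped. The effects were 0.03 ± 0.15 and -1.88 ± 0.32, a difference of 1.91 ± 0.35 (adjusted p = 0.00211). Keeping the flagged spot, or using the deposited values, gave 1.51 and ended the call.

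Oat, ornithine aminotransferase, was called in opposite directions and kept its difference in each setting. Its levels were 0.01, -0.28, 0.38 and 0.17 in CD-1 controls and -1.16, -0.96, -1.37 and -1.31 on PB. In hCAR/hPXR mice they ran from 6.48 to 7.06 with a median of 6.74 in controls and from 6.89 to 7.6 with a median of 7.37 on PB. The CD-1 groups were apart and the hCAR/hPXR groups overlapped at their edges. The effects were 0.60 ± 0.11 and -1.27 ± 0.24, a difference of 1.87 ± 0.26 (adjusted p = 0.000204). Cldn2, a tight junction protein, was the other pericentral gene called in opposite directions, at 0.57 and -0.85. Slc1a2, a glutamate carrier, fell by 2.03 on the log2 scale in CD-1 mice and measured 0.01 in hCAR/hPXR mice, with a called difference of 2.04 ± 0.39. Its other probes gave 1.65, called, and 0.68, not called. Of 18 periportal genes, 4 had a called difference (22.2%, near the background), and 4 fell in CD-1 mice against 1 in hCAR/hPXR mice.

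Receptors and their partners also differed. Of 17 members of the list of CAR, PXR and partner nuclear receptors, 8 (47.1%) had a called difference, all 8 higher in hCAR/hPXR mice. Rxra, the partner of both CAR and PXR, had levels of 0.27, -0.31, 0.11 and -0.12 in CD-1 controls and -1.31, -0.99, -0.61 and -0.96 on PB. Those of hCAR/hPXR animals ran from -0.14 to 0.19 in controls and from 0.13 to 0.71 on PB. The groups were apart in CD-1 mice and overlapped slightly in hCAR/hPXR mice. The effects were 0.54 ± 0.10 and -0.96 ± 0.22, a difference of 1.5 ± 0.24 (adjusted p = 0.000699) kept in each setting, while a dim second probe gave 1.44, not called. The corepressor Ncor1 was also called in opposite directions, at 0.61 and -0.90, a difference of 1.51 ± 0.25 (adjusted p = 0.00095). On its brightest probe Nr1i3, probed for the mouse gene, fell by 0.99 on the log2 scale in hCAR/hPXR mice. It measured -0.44 ± 0.25 in CD-1 mice, with a difference of -0.55 ± 0.28 (adjusted p = 0.185). A second Nr1i3 probe gave 0.39 in hCAR/hPXR and -1.25 in CD-1 mice, a difference of 1.64 that was not called. The probes disagree in sign, so no direction is given for Nr1i3. Whether either probe reads the human CAR transcript is not given in the sources used here. Nr1i2 differed by 0.42 ± 0.61, with no detectable level in most hCAR/hPXR animals.

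Sex-biased liver genes often had the same sign in both strains. Of 11 female-biased genes, 6 rose in both strains and 10 had the same sign, with medians of 2.34 in hCAR/hPXR and 2.49 in CD-1 mice. Cyp2b9 and Cyp2b13, picked after their values were seen, rose by 4.90 and 2.34 in hCAR/hPXR and by 4.29 and 3.18 in CD-1 mice. Both also belong to the P450 list above, so the agreement of these lists is in part that of the same genes. The 2 members with a called difference were Sult3a1 and Prom1. Prom1, a membrane protein of progenitor cells, rose by 6.68 ± 0.26 in hCAR/hPXR mice and by at least 11.4-fold in CD-1 mice. Its difference of 1.84 ± 0.62 (adjusted p = 0.045) became -1.09 with quantile scaling and -0.38 with equal spread, held in 6 of 22 fits without 1 animal, and was 4.82 on another probe, so its direction is not settled. The animals without which it was lost were CD-1 controls 1, 3 and 4, CD-1 PB 1, 2 and 4, hCAR/hPXR controls 2 to 7 and hCAR/hPXR PB 2, 5, 6 and 7. The median difference of the female-biased list was 0.51 although its CD-1 median was the higher, and it was -0.55 with quantile scaling. Of 16 male-biased genes, 13 had the same sign, 8 fell in hCAR/hPXR and 3 in CD-1 mice, and Cyp7b1 and Susd4, the second picked after its values were seen, fell in both. Limma called 0 of these 16 differences, and 2 had an unadjusted p under 0.05.

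Genes called in opposite directions with the largest smaller effect included enzymes, a spindle protein and a kinase. Pusl1, a pseudouridine synthase-like protein, had levels of 2.66, 2.07, 2.29 and 2.09 in CD-1 controls and -0.16, 0.67, 0.67 and 0.96 on PB. Levels in the humanised line ran from 0.04 to 0.35 with a median of 0.17 in controls and from 0.83 to 1.27 with a median of 1.06 on PB. The groups were apart in both strains, downward in CD-1 and upward in hCAR/hPXR mice. The effects were 0.84 ± 0.11 and -1.75 ± 0.23, a difference of 2.59 ± 0.26 (adjusted p = 4.86e-06). Hmmr, a hyaluronan receptor that also binds the mitotic spindle, measured 0.84 and -1.20, Maged2 0.95 and -0.79, and Paox, a polyamine oxidase, 0.75 and -0.98. Dmpk, the kinase of myotonic dystrophy, measured 0.75 and -1.83, but its dimmer probe gave a difference of 0.45, not called. The calls of Pusl1, Hmmr, Maged2 and Dmpk were kept in each setting, and that of Paox in each but the slide term.

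The reverse pattern was rarer: 31 of the 345 genes, 11 of them with a symbol (0.105% of 10435). Mup6, of the major urinary protein family, had levels of 1.70, 1.17, 1.97 and 1.26 in CD-1 controls and 2.57, 3.16, 3.6 and 3.23 on PB. hCAR/hPXR animals ran from 5.94 to 7.11 with a median of 6.72 in controls and from 4.38 to 5.55 with a median of 5.08 on PB. The groups were apart in both strains. The effects were -1.49 ± 0.19 and 1.61 ± 0.41, a difference of -3.11 ± 0.45 (adjusted p = 0.000285). Mup genes are near-identical copies, so this probe may read several of them. Pax2, a developmental transcription factor, measured -1.35 and 1.87, a difference of -3.22 ± 0.49 (adjusted p = 0.000417), while its other probe gave -0.76, not called. Atp8a1, a phospholipid flippase, measured -1.24 and 0.89, Zfp119b, a zinc finger protein, -0.61 and 0.75, and Kcnk16, a potassium channel, -0.39 and 0.82. The Zfp119b call was lost with equal spread (-1.26) and the Kcnk16 call with the replicate block (-1.21).

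Outside the lists, Spats2l had the largest called difference among genes with a symbol that were detected on all 22 arrays. Its levels were 3.30, 2.35, 2.62 and 2.86 in CD-1 controls and -1.45, -1.13, -1.19 and -1.12 on PB. In hCAR/hPXR mice they ran from -2.50 to -1.79 with a median of -2.03 in controls and from -2.72 to -1.84 with a median of -2.10 on PB. CD-1 PB animals fell far below their controls, and both hCAR/hPXR groups lay below every CD-1 animal. The effects were -0.05 ± 0.13 and -4.0 ± 0.29, a difference of 3.95 ± 0.32 (adjusted p = 3.47e-07) kept in each setting. Dph7, needed to make diphthamide on elongation factor 2, and Smpd1, acid sphingomyelinase, had differences of 2.65 ± 0.31 and 2.63 ± 0.32, also kept. Resf1 had 2.62 ± 0.25, but its second probe gave -0.88, not called.

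Other large differences rested on rises in hCAR/hPXR mice. Ly6d, a surface antigen, rose by 4.15 ± 0.44 there and measured 0.45 ± 0.96 in CD-1 mice, a difference of 3.70 ± 1.06 (adjusted p = 0.0218). It was lost without CD-1 PB 2, CD-1 PB 4, CD-1 control 3 or CD-1 control 4, and with quantile scaling (2.71), normexp (2.93) and both blocks. Meg3, an imprinted non-coding RNA, measured 1.86 and -1.04, a difference of 2.9 ± 0.75 (adjusted p = 0.0138) that was lost without CD-1 PB 4, with normexp (1.60) and with slide as a random block (2.75). Other Meg3 probes gave 1.41 and 0.05, neither called.

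The 8 genes that fell most in both strains without a called difference were Lrrc2, Hap1, Gpha2, Krt80, Vmn1r217, Ica1l, Cpne5 and Tspo2. They belong to no list, and several are better known from other tissues, such as Hap1 from neurons and Vmn1r217 as a pheromone receptor. Lrrc2 had levels of 3.75, 3.42, 3.49 and 3.11 in CD-1 controls and 0.74, 1.84, 1.76 and 2.16 on PB, and ran from 1.74 to 2.73 in hCAR/hPXR controls and from -0.23 to 1.35 on PB. The PB animals of both strains lay below all of their controls, and the effects of -1.84 ± 0.20 and -1.82 ± 0.45 differed by -0.02 ± 0.49. The other 7 had effects from -1.76 to -1.18 in hCAR/hPXR and from -2.40 to -1.14 in CD-1 mice. Other scalings called some of these differences, with normexp and quantile scaling giving 1.88 for Gpha2, 1.23 for Ica1l, 0.77 for Cpne5 and 1.13 for Tspo2, and for Lrrc2 equal spread gave 1.02, not called. Second probes of Hap1 and Cpne5 gave -0.40 and -0.97 in CD-1 mice, neither called. Their differences of -0.36 and -0.62 were not called and had the other sign from the brightest probes (0.44 and 0.31).

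S100a8, a calcium-binding protein abundant in neutrophils, had the largest lower difference. Its levels were -1.25, -1.67, -2.01 and -1.10 in CD-1 controls and 4.82, 5.32, 5.45 and 5.08 on PB. Those of hCAR/hPXR animals ran from -0.30 to 3.54 with a median of 0.25 in controls and from 0.38 to 3.63 with a median of 1.82 on PB. The CD-1 groups were far apart and the hCAR/hPXR groups overlapped widely. The effects were 1.05 ± 0.55 and 6.67 ± 1.21, a difference of -5.63 ± 1.33 (adjusted p = 0.00833), which the replicate block ended. Of 6 members detected in both strains, S100a8 was the 1 that passed the test upward in CD-1 mice, 2 fell in hCAR/hPXR mice (Camp and Elane, picked after their values were seen), and the median CD-1 effect was 0.62. The summed level of the 7 tested markers without it ran from 7.40 to 8.57 in CD-1 controls and from 6.47 to 8.12 on PB. For hCAR/hPXR animals that sum ran from 7.07 to 7.82 in controls and from 7.41 to 7.71 on PB.

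Some markers of other cells also differed. Of 8 stellate cell and fibroblast genes, 4 (50%) had a called difference, all higher (Ecm1, Acta2, Col1a2 and Lum), and of 9 sinusoidal endothelial genes 4 (44.4%) had one, against 25.8% of all genes with a symbol. Eng, an endothelial TGF-beta co-receptor, was called in opposite directions at 0.47 and -0.80, a difference of 1.27 ± 0.23 (adjusted p = 0.00178). Kdr gave -1.86 on one probe and 0.92 on another, both called, so no direction is given for it. Of 10 Kupffer cell genes, 2 (C1qa and C1qb) had a called difference. Summed Kupffer levels ran from 5.11 to 5.26 in CD-1 controls and 4.65 to 5.41 on PB, and from 7.09 to 7.51 and 7.21 to 8.21 in hCAR/hPXR mice. Of 5 T, B and NK cell genes, 1 (Cd4) had a called difference, and limma called 0 of 4 bile duct, 0 of 6 red blood cell, 0 of 3 exocrine pancreas and 0 of 1 adipocyte genes detected in both strains, with 2, 0, 0 and 0 at an unadjusted p under 0.05. The stellate and Kupffer calls other than C1qa were each lost without 1 or more CD-1 animals: Ecm1 and C1qb without control 3, Acta2 without control 3 or PB 4, Col1a2 without control 3 or 4 or PB 1, and Lum without control 1 or 3 or PB 1, 2 or 4. The part of cell make-up in the other results was not tested.

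Stress and inflammation lists showed few called differences between the responses, which does not show that the responses were alike. The median difference was 0.50 for acute phase, 0.58 for ER stress and ATF4, 0.54 for clock and 0.64 for immediate-early and heat-shock genes. It was 0.11 for interferon-stimulated genes and 0.46 for all genes with a symbol. Of 26 acute phase genes, 1 (Hamp2) had a called difference, which was lost without CD-1 PB 2 or 3 or CD-1 control 3 or 4. Of 14 interferon-stimulated genes, 1 (Stat2) had one, lost without CD-1 PB 1 or 3 or CD-1 control 1, 3 or 4, and of 10 clock genes, 1 (Hlf) had one, lost without CD-1 control 3. Limma called 0 of 17 ER stress and ATF4 targets, where 5 had an unadjusted p under 0.05. Of 13 immediate-early and heat-shock genes, 3 (Jund, Hspb1 and Klf6) had a called difference, near the background share. The Jund call was lost without CD-1 control 3, and the Klf6 call without CD-1 PB 1 or 2, CD-1 control 1, 3 or 4 or hCAR/hPXR control 4. Of 9 fetal liver and tumour markers, 3 (Prom1, Ly6d and Meg3) had one.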

How the data were processed

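Liver RNA of 22 mice was read on 1-colour Agilent arrays. Per the file headers, Feature Extraction 10.7.3.1 made the processed signal, a background-subtracted and detrended intensity for each spot, which the authors deposited with 1 array per animal. The deposited value table holds log2 signals minus a constant for each array, found by setting it against the scanner values of all 55681 non-control probes (offset from the 75th percentile between -0.010 and 0.023), and served as an alternative.

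From the intensities, log2 processed signal minus the 75th percentile of the array was computed, flagged spots were dropped (109 to 430 per array) and spots of 1 probe were averaged. A probe was tested where it was well above background on every array of at least 1 of the 4 groups, which left 36999. A gene took its probe with the highest mean over the 22 arrays, and was compared between strains where it passed that filter in both (16737 genes). Of the probes, 26582 carry 20145 symbols and 29099 carry none. Symbols come from the RefSeq gene table, matched through the accession that the array files give for each probe.

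One limma 3.58.1 model (R 4.3.3) held the 4 group means, with array weights by strain, and gave each effect and their difference with Benjamini-Hochberg adjustment over all tested probes at 0.05. The fit was tested on simulated data. Nothing in the labels says more than "biological rep", so p-values rest on the spread between these animals, pooled over both strains for each probe. A level given as at least N-fold sets the bright group's mean against the dim group's mean of, per array, the higher of the lowest signal among well-above-background probes and the probe's own.

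Named genes were 15 fixed genes, the 8 largest called differences each way, the 8 strongest genes up and down in both, 5 opposite ones each way and up to 4 called members per list by adjusted p, with other genes marked where named. Comparisons, members and all 40 lists were chosen with earlier results of these data known. Alternatives covered scaling, background correction, filter, variance, slide, replicate number and each animal left out. Python 3.11.15 with pandas 2.3.3, numpy 2.4.6 and matplotlib 3.10.9 made tables and figures. Some results are not reported here.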

Additional observations from a re-analysis of the deposited data

Results flagged for a closer look

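Of 80 groups of values examined for a sample far from the rest, 9 held one, where chance gives about 5 percent. The CD-1 PB group had 1 animal with Nr1i3 at 1.46 against 0.86 to 0.95 in the others, and the CD-1 controls had 1 with Mki67 at -1.28 against -0.10 to 0.11. Among hCAR/hPXR PB animals, 1 value stood apart for Cyp2b10 (9.63 against 9.90 to 10.08), Alas1 (8.67 against 7.70 to 8.11), Gadd45b (2.33 against 2.84 to 3.22) and Glul (6.24 against 6.65 to 6.83). Among hCAR/hPXR controls the same held for Cyp2c55 (1.39 against 2.50 to 2.87) and Cyp1a2 (2.72 against 3.54 to 4.04). One hCAR/hPXR control array had 430 flagged spots, against 159 to 208 on the other 6.

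The test of the difference between the strains' responses passed for 6175 probes, and 345 genes were called in opposite directions. Among the genes of the first and opposite-direction parts of the naming rule, the response was called lower in hCAR/hPXR mice for Cyp2b10 (-2.17), Cyp2c55 (-2.70), Alas1 (-1.37), Pax2 (-3.22), Mup6 (-3.11), Atp8a1 (-2.13), Zfp119b (-1.36) and Kcnk16 (-1.21). It was called higher for Mki67 (2.0), Glul (1.91), Pusl1 (2.59), Hmmr (2.04), Maged2 (1.74), Paox (1.73) and Dmpk (2.58).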

How the results depend on the processing

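The count of probes with a called difference, 6175 in the limma fit, fell to 886 with a slide term within hCAR/hPXR, to 1961 with slide as a random block and to 2089 with the replicate block, and ran from 2973 (without CD-1 control 3) to 7059 with 1 animal left out; it was 4094 without CD-1 PB 2 and 4024 without CD-1 PB 4. The other settings gave 4143 to 9248. Genes called in the same direction (648) numbered 424 with equal spread, 1106 with normexp and quantile scaling, 1038 with a common variance, 54 with the slide term, 251 with the random slide block, 306 with the replicate block and 352 to 711 with 1 animal left out. Genes called in opposite directions (345) numbered 100 with equal spread, 91 with a separate fit for each strain, 3, 58 and 66 with the slide term, the random slide block and the replicate block, and 136 to 560 with 1 animal left out. The hCAR/hPXR effect (14046 probes) gave 8552 with equal spread, 481 with the slide term and 12469 to 15022 with 1 animal left out. The CD-1 effect (3552) gave 6577 with normexp and quantile scaling, 1834 on probes detected on all 22 arrays, 8618 with a common variance, 2325 with separate fits, 1403 with the random slide block, 1259 with the replicate block and 1641 to 4434 with 1 animal left out. The replicate block and slide-term fits have fewer residual degrees of freedom, and the random slide block keeps those of the main fit. Under the slide term the hCAR/hPXR effect rests on PB animal 1 alone. The cause of the shifts was not tested. Among the 122 named genes with a called difference, Prom1 alone reversed, to -1.09 with quantile scaling and -0.38 with equal spread. No probe called in both the main and another setting changed sign. Replicate numbers did not pair the samples: same-numbered animals of the control and PB groups had correlations of -0.39 to 0.15, and 2 of 11 matched best with their own number. Of these 122 calls, the replicate block ended 38, normexp 52, the slide term 80 and quantile scaling 41 beside the reversed Prom1. With 4 animals a group, CD-1 limits the precision.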
